A study of Mus musculus with 12 samples.

Results

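The MiT/TFE family consists of 4 genes in the mouse, Mitf, Tfeb, Tfe3 and Tfec, and all of them were found by symbol and Ensembl identifier among the 32783 genes counted in the series. The family was chosen by the read counts of Mitf, which were lower in the astrocytes of AAV-A2A mice, so the astrocyte comparison of the 4 genes is given below as values without a test. The libraries came from hippocampi of male C57Bl6/J mice injected bilaterally in CA1 at 2 months of age and studied 2 months later, at 4 months. Each mouse received an AAV2/9 vector with the GfaABC1D astrocytic promoter, driving either murine Adora2a (AAV-A2A) or GFP (AAV-GFP, control), and hippocampal cells were sorted on magnetic beads first with ACSA-2 for astrocytes and then, from the cells that were not retained, with CD11b for microglia. The 4 groups, astrocytes AAV-GFP, astrocytes AAV-A2A, microglia AAV-GFP and microglia AAV-A2A, held 3 libraries each. Libraries are named by vector and the number in their label, for example GFP-303. The vector's promoter targets astrocytes, so the sorted microglia came from injected hippocampi without being the intended target. The labels do not say which astrocyte and microglia libraries, if any, came from the same mouse. The 2 fractions were deposited as separate count tables, so cell fraction and count table cannot be told apart.

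MiT/TFE proteins are basic helix-loop-helix leucine zipper transcription factors that bind DNA as dimers with each other. TFEB and TFE3, and MITF isoforms that carry the same amino-terminal region, are held in the cytoplasm after phosphorylation by mTORC1 at the lysosome, and once dephosphorylated enter the nucleus and activate lysosomal and autophagy genes through the CLEAR motif. MITF is best known as the master factor of melanocytes, the retinal pigment epithelium and, with TFE3, osteoclasts, whereas TFEC is a shorter member known mainly from macrophages. In melanocytes, transcription of the short MITF-M form is driven by cAMP through CREB bound at a cAMP response element, with CRTC proteins as coactivators and salt-inducible kinases as their inhibitors. The A2A receptor couples to Gs and raises cAMP.

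On GRCm38 the genes lie on chromosome 6 from 97807052 to 98021349 on the plus strand (Mitf, ENSMUSG00000035158), chromosome 17 from 47737030 to 47792419 on the plus strand (Tfeb, ENSMUSG00000023990), chromosome X from 7762560 to 7775202 on the plus strand (Tfe3, ENSMUSG00000000134) and chromosome 6 from 16833373 to 16898441 on the minus strand (Tfec, ENSMUSG00000029553). Mitf has 8 annotated transcripts, Tfeb 15, Tfe3 14 and Tfec 5, and the counts are per gene, so they do not resolve start sites or isoforms. No exon base of the 4 genes is shared with another annotated gene. RefSeq (GRCm38.p6) gave 9 promoter windows for the family, each with 250 bases before and 50 after a start site. The most downstream of the 3 Mitf windows, at the start of the melanocyte form, was the 1 window of the 9 that held the 8 letters of the cAMP response element, TGACGTCA. Of all 32851 windows, 1.79% held them. Whether this start is used in astrocytes was not tested. The 250 bases before it, chr6:97991533-97991782 on the plus strand, are shown because in melanocytes cAMP acts on Mitf through such an element. The element is in capitals, 153 bases before the start.
Mitf: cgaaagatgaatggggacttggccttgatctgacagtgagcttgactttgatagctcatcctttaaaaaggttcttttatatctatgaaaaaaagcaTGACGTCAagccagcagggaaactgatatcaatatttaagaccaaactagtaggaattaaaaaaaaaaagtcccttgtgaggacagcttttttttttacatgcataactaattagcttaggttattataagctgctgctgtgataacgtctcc

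The targets of the family were looked at in the same way. The palindromic core of the CLEAR motif, TCACGTGA, which contains the E-box CACGTG, stood in the windows of 10 of the 38 lysosomal target genes that had a window (26.3%), against 1.13% of all 27025 genes with a window. The E-box alone was found in 44.7% of the lysosomal genes and 8.09% of all genes. Of 14 MITF targets of pigment cells and osteoclasts, 57.1% held CATGTG, the core of the M-box, against 15.9% of all genes. The lists hold genes already known as targets, the lysosomal ones as CLEAR targets, so nothing is read from these excesses. Both strands were searched. None of the 9 family windows held CACGTG or CATGTG. A few of the lysosomal sites are shown with the core in capitals, in the orientation of the gene, because their genes return in the comparisons below. Ctsd encodes cathepsin D (chr7:142387909-142387936, minus strand), Mcoln1 the lysosomal calcium channel that activates calcineurin (chr8:3500463-3500490, plus strand), Atp6v1a a subunit of the vacuolar proton pump (chr16:44139374-44139401, minus strand) and Clcn7 a lysosomal chloride-proton exchanger (chr17:25133387-25133414, plus strand), all on GRCm38.p6 as given by RefSeq.
Ctsd: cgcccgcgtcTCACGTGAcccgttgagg
Mcoln1: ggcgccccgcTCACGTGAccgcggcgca
Atp6v1a: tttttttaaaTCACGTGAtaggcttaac
Clcn7: cgatgatagaTCACGTGAgacctgggcg

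Depth was high in every library, with 33937067 to 53206974 reads counted on genes. The vector could be seen in the counts. Adora2a stood at 24.2 ± 1.11 CPM (counts scaled to library size, SD, n = 3) in AAV-GFP astrocytes and at 786 ± 147 in AAV-A2A astrocytes, and reads of the murine transgene are counted with those of the gene. In microglia Adora2a stood at 5.61 ± 2.17 CPM with AAV-GFP and at 25.8 ± 15.2 CPM with AAV-A2A. These groups did not overlap (3.96 to 8.07 against 16.3 to 43.3 CPM), but the gene was not called there (log2 fold change 2.20, edgeR). Whether the reads in microglia came from the vector was not tested. Astrocyte markers summed to 8533 to 12974 CPM in the astrocyte libraries and 248 to 430 CPM in the microglia libraries. Microglial markers summed to 214 to 384 CPM in astrocytes, but in the microglia libraries they spread from 6308 CPM (GFP-2328) to 52714 CPM (A2A-2343). In 3 microglia libraries, GFP-2328, GFP-2329 and A2A-2347, the 5 choroid plexus markers took 8.53%, 6.73% and 3.25% of all counts, and at most 0.0086% in the other 3. Their summed microglial markers, 6308, 12820 and 18743 CPM, were the lowest of the 6. The microglia results below therefore rest on libraries of different purity, and the log2 fold changes of the members are also given without those 3. Other markers went with the vector. Erythrocyte markers summed to 1016 to 5984 CPM in AAV-GFP microglia and to 56.7 to 253 CPM in AAV-A2A microglia. Summed neuronal and endothelial markers were also higher in every AAV-GFP than in any AAV-A2A microglia library. Leaving out those 3 libraries keeps these differences, since GFP-2331 was above the remaining AAV-A2A libraries. The part of such RNA in the microglia results was not tested.

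In control astrocytes, Tfeb had the highest level of the family per length of gene, followed by Mitf and Tfe3, and Tfec had no read. Per kb of merged exons, on the 12-library CPM scale, the levels were 4.26 ± 0.724 for Tfeb, 2.48 ± 0.268 for Mitf and 2.04 ± 0.446 for Tfe3 (SD, n = 3). The ranges of Mitf (2.20 to 2.73) and Tfe3 (1.75 to 2.55) overlapped, so these neighbours did not differ beyond their spread, whereas the lowest Tfeb library (3.52) was above every Mitf library. As a share of the family's summed level per kb of merged exons, Tfeb made up 48.5%, Mitf 28.4% and Tfe3 23.1%. Such shares depend on the length used. Per kb of the median transcript, Tfeb stood at 44.9, Mitf at 7.63 and Tfe3 at 6.20 in these libraries. The median annotated transcript was only 538 bases for Tfeb, beside 5669 bases of merged exons, and 2017 for Mitf and 3046 for Tfe3. In AAV-A2A astrocytes the share of Mitf was 5.56% ± 2.96, with 63.2% for Tfeb and 27.1% for Tfe3. In AAV-GFP microglia the 3 genes were close together, with Tfe3 at 11.4 ± 8.33, Tfeb at 9.09 ± 4.60 and Mitf at 8.33 ± 3.22 per kb, and no neighbours in that order differed beyond their spread. In AAV-A2A microglia the order was Tfe3 at 23.2 ± 4.98, Tfeb at 13.4 ± 4.01 and Mitf at 4.94 ± 1.67, and the ranges of the 3 did not overlap. With the median transcript length in place of merged exons, the order of the 4 genes was kept in both astrocyte groups but not in microglia. There Tfeb became the highest, at 95.8 against 34.8 for Tfe3 with AAV-GFP and at 141 against 70.6 with AAV-A2A, so the order of Tfe3 and Tfeb in microglia depends on the length used.

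Mitf was the member whose level in astrocytes went with the vector. The 3 AAV-GFP libraries held 13.6, 15.6 and 16.9 CPM (534, 522 and 634 reads) and the 3 AAV-A2A libraries 0.867, 2.95 and 2.71 CPM (31, 125 and 125 reads). All 3 AAV-A2A libraries were below all 3 controls, and A2A-309 was the lowest. The fitted log2 fold change was -2.78 ± 0.492 (SE), a level 6.88-fold lower. Of all 16451 genes in that fit, 19.6% had groups that did not overlap and 3.36% were called, but Mitf chose the family, so nothing is read from this. Leaving out each library in turn gave log2 fold changes from -3.05 to -2.40.

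The other members did not follow Mitf in astrocytes. Tfeb, the member most closely tied to lysosome biogenesis, stood at 20.0, 24.3 and 28.2 CPM with AAV-GFP and 22.1, 15.8 and 30.5 CPM with AAV-A2A. The groups overlapped, with a log2 fold change of -0.05 ± 0.299. Tfe3 stood at 16.3, 16.8 and 23.7 CPM with AAV-GFP and at 14.8, 15.8 and 16.0 CPM with AAV-A2A. On this scale the groups were just apart, they overlapped when the astrocyte libraries were scaled on their own, and the log2 fold change was -0.25 ± 0.270. Tfec did not pass the filter on low counts. It had 0 reads in all 3 AAV-GFP libraries, where 3 counts correspond to 0.0821 CPM on average, and 0, 165 and 4 reads in the AAV-A2A libraries A2A-309, A2A-310 and A2A-313, so its signal in astrocytes came from A2A-310.

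**Figure D1:**
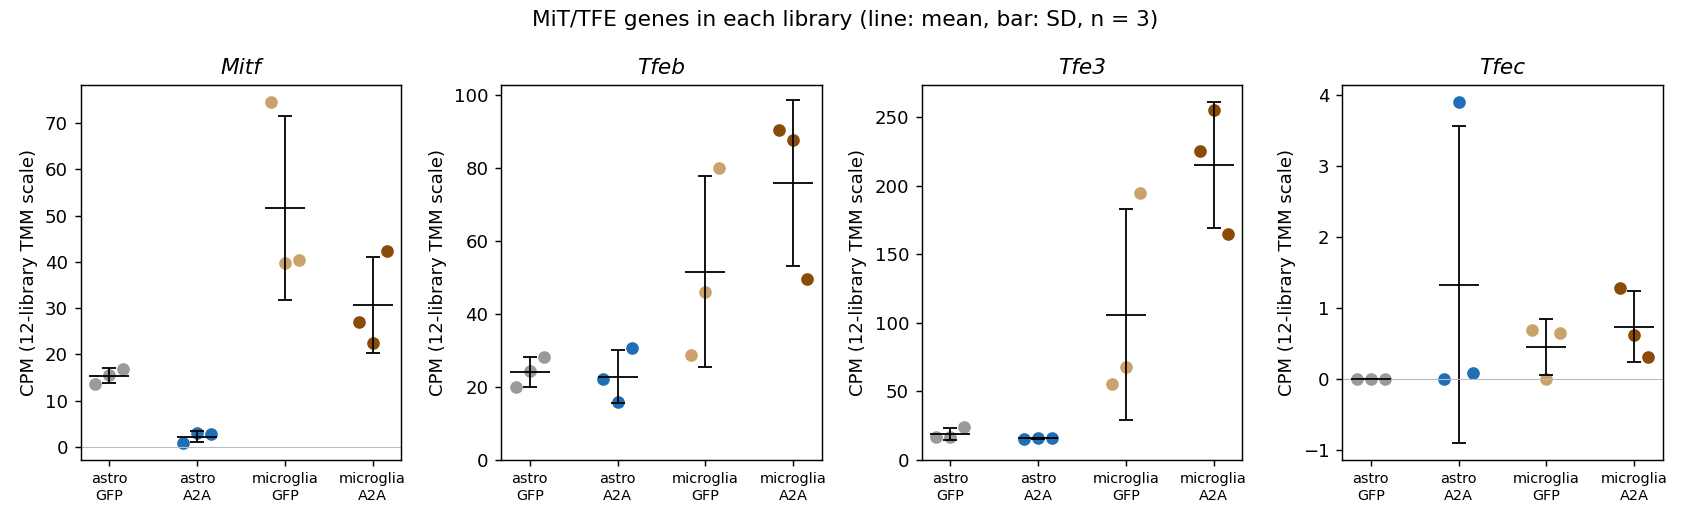
Level of each MiT/TFE gene in CPM (vertical axis with its own scale in each panel, 0 included) in the 12 libraries, 3 points per group, with the mean and the SD. Mitf is lower in all 3 AAV-A2A astrocyte libraries (0.867 to 2.95 CPM) than in the 3 controls (13.6 to 16.9 CPM), and Tfeb and Tfe3 spread widely among the microglia libraries.

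Markers of other cell types were compared beside this result. Of the 4 genes that mark oligodendrocyte precursors, Cspg4 fell in AAV-A2A astrocytes, from 190 to 296 CPM down to 44.8 to 71.2 CPM (log2 fold change -2.17 ± 0.244, adjusted p = 0.00226, edgeR), whereas Pdgfra (-0.39 ± 0.424) and Olig2 (0.06 ± 0.446) were not called and Sox10 was too low to be tested. The summed level of the 4 was 211 to 340 CPM with AAV-GFP and 72.3 to 105 CPM with AAV-A2A. With AAV-GFP this sum was mostly Cspg4, so its fall largely repeats that of Cspg4. Melanocyte markers were near 0 in astrocytes, with Tyr, Tyrp1 and Mlana without a read in either group and a sum of at most 3.37 CPM. The 4 endothelial markers summed to 350 to 412 CPM with AAV-GFP and 192 to 335 CPM with AAV-A2A. One of them, Flt1, fell from 160 to 197 CPM down to 46.0 to 77.5 CPM (log2 fold change -1.66 ± 0.235, adjusted p = 0.00523, edgeR), whereas Cldn5 (0.05), Pecam1 (-0.50) and Cdh5 (-2.62) were not called. The part of precursor and endothelial cells in the Mitf difference was not tested. In sorted bulk samples, fewer cells of a type and less RNA per cell cannot be told apart.

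In microglia none of the 4 genes passed the test between vectors, nor did any of the 16949 genes tested (0.0% called by edgeR, although 23.4% had groups that did not overlap, with 2704 genes at an unadjusted p under 0.05, and 455 genes called by DESeq2, of which no member). Mitf held 74.6, 39.8 and 40.3 CPM in GFP-2328, GFP-2329 and GFP-2331 and 27.0, 22.5 and 42.3 CPM in A2A-2343, A2A-2344 and A2A-2347. The groups overlapped because of A2A-2347, the 1 AAV-A2A library rich in choroid plexus RNA. The log2 fold change was -0.76 ± 0.430 (adjusted p = 0.414, edgeR). Without the 3 libraries rich in choroid plexus RNA, which leaves 1 AAV-GFP library against 2, it was -0.72 ± 0.734.

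Tfe3 and Tfeb were ordered differently from Mitf among the same libraries. Tfe3 stood at 55.1, 68.0 and 195 CPM in GFP-2328, GFP-2329 and GFP-2331 and at 225, 255 and 165 CPM in A2A-2343, A2A-2344 and A2A-2347. It was lowest in the 3 libraries with the lowest microglial markers, although without TMM scaling A2A-2347 (182) was level with GFP-2331 (178). The log2 fold change was 1.01 ± 0.508 (adjusted p = 0.373, edgeR), and 0.28 ± 0.652 without the libraries rich in choroid plexus RNA. Tfeb stood at 28.7, 45.9 and 80.0 CPM with AAV-GFP and 90.3, 87.6 and 49.7 CPM with AAV-A2A, again lowest in those 3 libraries, with a log2 fold change of 0.53 ± 0.410 (adjusted p = 0.548, edgeR) and 0.13 ± 0.666 without them. Tfec was at the edge of detection, with 37, 0 and 25 reads with AAV-GFP and 45, 21 and 18 reads with AAV-A2A (log2 fold change 0.65 ± 1.40, adjusted p = 0.841, edgeR, and 0.52 ± 1.68 without those 3 libraries). The part of the choroid plexus RNA in these differences was not tested.

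Several pigment genes known as MITF targets were highest in the same 3 libraries, and others of the list were lowest there. Oca2, which sets melanosome pH, had 5181, 2490 and 6471 reads in GFP-2328, GFP-2329 and A2A-2347 and 0 reads in the other 3. Slc24a5, a melanosomal cation exchanger, had 2467, 1527 and 1324 reads there and at most 14 elsewhere. Rab38, which traffics melanosomal enzymes, had 462, 358 and 165 reads against 0. The melanocyte enzyme Tyrp1 was low, with 60, 0 and 84 reads in the 3 libraries, and 0 in the others. Mlph and Rab27a, partners in melanosome transport, went the other way. Mlph had 1016, 1714 and 3653 reads in the 3 libraries and 4806 to 5103 in the others, and Rab27a 213, 417 and 1058 reads against 1111 to 1653. These genes were chosen after their values were seen. Mitf itself was highest in GFP-2328, but GFP-2331 with almost no choroid plexus RNA was level with GFP-2329, at 40.3 and 39.8 CPM.

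**Figure D2:**
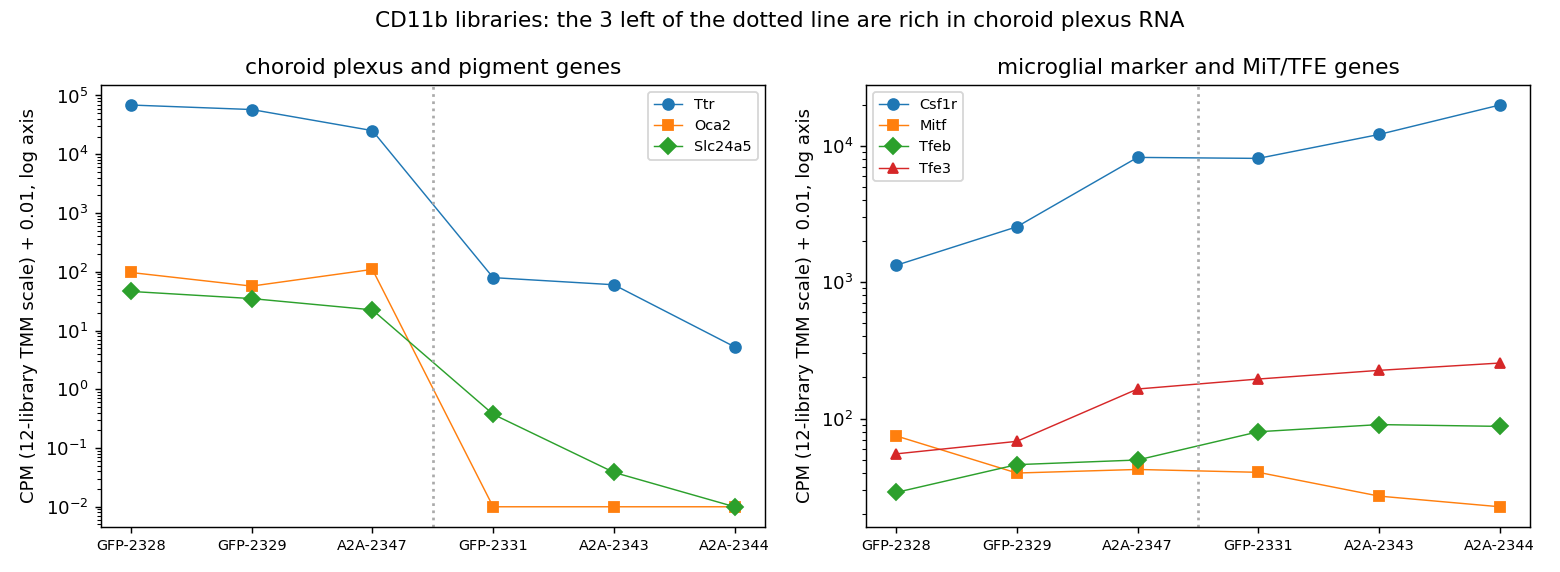
CPM on the 12-library scale (log axis, 0.01 added) of choroid plexus and pigment genes (left) and of the microglial marker Csf1r and 3 MiT/TFE genes (right) in the 6 microglia libraries, ordered with the 3 rich in choroid plexus RNA first. Ttr, Oca2 and Slc24a5 stand high only in the first 3 libraries plotted, where Tfeb and Tfe3 are lower, while Mitf does not drop there.

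Between the cell fractions of control mice, Tfe3 was higher in microglia. It was 5.61-fold lower in AAV-GFP astrocytes than in AAV-GFP microglia (log2 fold change -2.49 ± 0.437, adjusted p = 0.00196, edgeR) and was called, where 27.6% of all 18995 genes were called and 15.2% were called as lower in astrocytes. Its adjusted p stayed between 1.41e-06 and 0.0169 over the alternatives tried. Tfeb was lower in astrocytes in every library (log2 fold change -1.09 ± 0.397) but missed the threshold (adjusted p = 0.0602, edgeR). It was not called in 17 of 20 alternatives either, with an adjusted p of up to 0.241 (log2 fold change -0.63, without GFP-2331). It passed with DESeq2 (adjusted p = 0.0443), when GFP-2328 was left out (adjusted p = 0.0247, edgeR) and when the 3 libraries rich in choroid plexus RNA were (-1.75 ± 0.370, adjusted p = 0.00581). For Tfe3 the value without those 3 was -3.39 ± 0.287. Tfec had reads in 2 of the 3 AAV-GFP microglia libraries and in no AAV-GFP astrocyte library. It passed the filter on low counts through its reads in the other groups, and nothing is read from its test. Mitf was 3.35-fold lower in astrocytes (log2 fold change -1.74 ± 0.453, and -1.41 ± 0.564 without those 3 libraries) and is given without a test, since its AAV-GFP astrocyte libraries chose the family. Its groups did not overlap, as for Tfeb and Tfe3 and for 48.5% of all genes.

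Over all 4 groups, Mitf was ordered microglia AAV-GFP (51.6 ± 19.9 CPM), microglia AAV-A2A (30.6 ± 10.4), astrocytes AAV-GFP (15.4 ± 1.66) and astrocytes AAV-A2A (2.18 ± 1.14), and only the 2 microglia groups overlapped. The difference between the vector effects, astrocytes less microglia, was -2.06 ± 0.632 on the log2 scale for Mitf, -0.64 ± 0.555 for Tfeb and -1.30 ± 0.588 for Tfe3. These differences contain the astrocyte effect that chose the family and are given without a test. Of all genes, 0.39% were called in this difference. Without the libraries rich in choroid plexus RNA the differences were -2.12 ± 0.813 for Mitf, -0.24 ± 0.511 for Tfeb and -0.59 ± 0.407 for Tfe3.

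**Figure D3:**
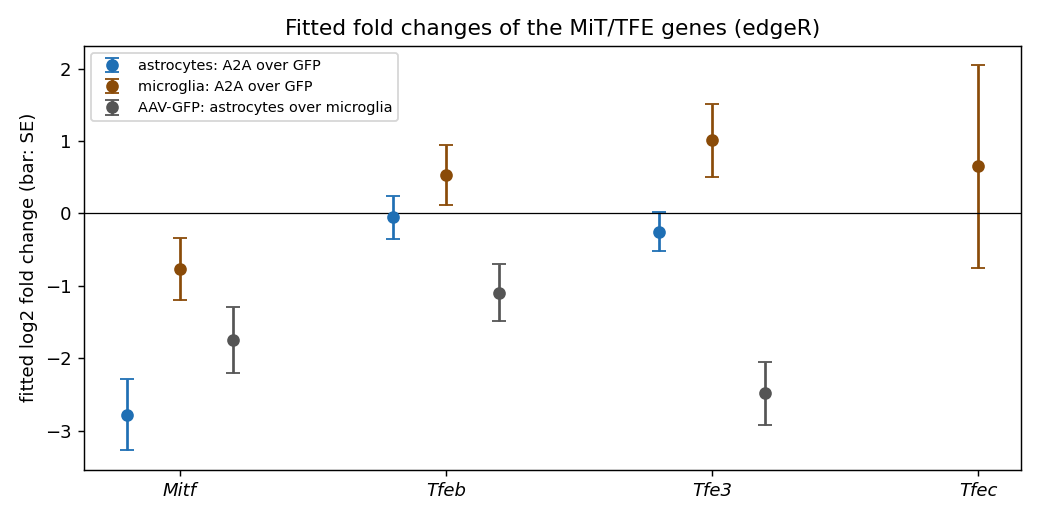
Fitted log2 fold changes (points) with their SE (bars) for the 4 genes in the comparison of vectors in astrocytes, of vectors in microglia and of the 2 control fractions. Mitf in astrocytes (-2.78) and Tfe3 between fractions (-2.49) lie farthest from 0, and Tfec is drawn for microglia only, where it was fitted with reads in both groups.

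The genes around the family were read from 7 lists, 157 genes without the members, of which 142 were tested in astrocytes. With AAV-A2A, 19 of them fell and 0 rose, which is 13.4% of those tested. Over all genes, 3.19% fell and 0.176% rose, 524 and 29 genes. The lists were written with earlier results of these data known. In microglia 0 of the 147 tested were called by edgeR. Over all genes DESeq2 called 455 of 30266 there, 239 of them higher with AAV-A2A, in libraries of unequal purity. Of the list genes it called 4, all higher with AAV-A2A. These were the folliculin partner Fnip2 (log2 fold change 2.46, adjusted p = 0.0355, DESeq2), the endosomal tethering subunit Vps8 (1.90, adjusted p = 0.0165), the MYC family gene Mycl (1.71, adjusted p = 0.0459) and Clcn7 (1.71, adjusted p = 0.0482).

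Among the genes known to act on Mitf transcription in melanocytes, 3 of 12 tested fell in AAV-A2A astrocytes and none rose. The list's median log2 fold change was -0.16, beside 0.02 over all genes. Crtc3, a coactivator of CREB, went from 241, 219 and 256 CPM to 91.9, 67.6 and 42.1 CPM (log2 fold change -1.83 ± 0.267, adjusted p = 0.00567, edgeR). Crtc1, a second coactivator of the same family, went from 110 ± 16.3 to 32.4 ± 9.84 CPM (-1.77 ± 0.247, adjusted p = 0.00496). Sik2, a salt-inducible kinase that keeps CRTC proteins in the cytoplasm, went from 23.3, 18.9 and 27.4 CPM to 8.26, 9.51 and 6.62 CPM (-1.51 ± 0.293, adjusted p = 0.0215). The groups of all 3 genes were apart in every library. Crtc1 and Crtc3 stayed called when any 1 library was left out, and Sik2 was not called without any 1 of the 6. Creb1 itself had a log2 fold change of -0.17 ± 0.389 and was not called. In microglia the log2 fold change was -0.45 for both Crtc1 and Crtc3 and 1.04 for Sik2, none of them called.

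A further list held kinases, calcineurin subunits, 14-3-3 proteins and a few other genes whose products act on MiT/TFE proteins or their export from the nucleus. Of its 22 genes, 4 fell and 0 rose, with a list median of -0.29. Cdk6, which phosphorylates TFEB and TFE3 in the nucleus, went from 41.3, 43.9 and 52.8 CPM to 5.21, 5.91 and 3.92 CPM, 9.17-fold lower (log2 fold change -3.20 ± 0.272, adjusted p = 0.00106, edgeR). Ppp3r1, the regulatory subunit of calcineurin, the phosphatase that releases TFEB, went from 529 ± 62.4 to 96.1 ± 29.1 CPM (-2.46 ± 0.243, adjusted p = 0.00184). Ywhab, which fell as well, encodes a 14-3-3 protein of the kind that retains phosphorylated TFEB in the cytoplasm (-1.90 ± 0.188, adjusted p = 0.00184). Of 20 genes of mTORC1, the Rag GTPases and their regulators, Mtor alone was called, from 60.3 ± 16.9 to 22.3 ± 5.03 CPM (-1.43 ± 0.281, adjusted p = 0.0224), and it was not called without GFP-306, GFP-307, A2A-310 or A2A-313. Flcn (0.13 ± 0.230) was not called.

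The lysosomal targets did not move as a block. Of 48 tested, 6 fell with AAV-A2A and 0 rose, 31 had a positive log2 fold change, and the list median was 0.06 beside 0.02 over all genes. Atp6v0a1, a membrane subunit of the vacuolar proton pump, went from 216, 245 and 180 CPM to 63.9, 19.0 and 47.3 CPM (log2 fold change -2.30 ± 0.380, adjusted p = 0.0101, edgeR), and was not called without GFP-306 or A2A-313. Npc1, which exports cholesterol from the lysosome, went from 1028 ± 182 to 290 ± 115 CPM (-1.83 ± 0.285, adjusted p = 0.00776). Sgsh, which degrades heparan sulfate, went from 190 ± 24.3 to 57.6 ± 30.8 CPM (-1.72 ± 0.333, adjusted p = 0.0215), a call that was kept without A2A-309 but not without any other library. The remaining 3 were Scpep1 (-1.52), Gusb (-1.33) and Atp6v1a (-0.91), the last not called without GFP-306, GFP-307, A2A-309 or A2A-310. Of the 10 genes with the CLEAR core in their promoter window, Atp6v1a was the 1 that fell, 0 rose, and the median was 0.09. Of 21 autophagy targets tested, none was called in either direction, and their log2 fold changes ran from -1.54 to 0.68.

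MITF targets of pigment cells and osteoclasts were mostly too low in astrocytes, with 9 of 19 tested. Of these 9, 6 had a positive log2 fold change, and the list median was 0.27 beside 0.02 over all genes. Rab38 was called, with 148, 68 and 20 reads in GFP-303, GFP-306 and GFP-307 against 0 in each AAV-A2A library. Against a floor of 3 counts per library it was at least 28.3-fold lower. Rab38 passed the filter on low counts through its AAV-GFP reads alone, so nothing is read from its call. Its AAV-GFP level was only 2.08 ± 1.59 CPM, it was called in 5 of 12 alternatives and lost without any 1 library other than GFP-307, and it was singled out after its values were seen. Gpnmb, a glycoprotein of melanosomes and lysosomes, had a log2 fold change of 0.63 ± 0.365 and Ctsk, the collagen-degrading cathepsin of osteoclasts, one of -1.13 ± 0.430, neither called.

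Among other factors that bind the same E-box, 4 of 17 fell and 0 rose. The list median was -0.62, and 6 of the 17 had a positive log2 fold change. Srebf2, the regulator of cholesterol synthesis, went from 1634, 1274 and 1632 CPM to 411, 190 and 360 CPM (log2 fold change -2.24 ± 0.284, adjusted p = 0.00334, edgeR), and Srebf1, its relative for fatty acid synthesis, changed by -1.30 ± 0.211 (adjusted p = 0.00944). Mlxip, a glucose-responsive factor, went from 131 ± 21.4 to 48.7 ± 14.5 CPM (-1.43 ± 0.246, adjusted p = 0.0119), and was not called without GFP-303, GFP-306 or A2A-310. Myc went from 34.5 ± 7.96 to 11.8 ± 3.82 CPM (-1.54, adjusted p = 0.0307), and was not called without any 1 of the 6 libraries. When all 12 libraries shared 1 fit, 8 list genes stayed called in astrocytes, and Mtor, Ywhab, Npc1, Sgsh, Scpep1, Gusb, Atp6v1a, Rab38, Srebf1, Mlxip and Myc did not.

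**Figure D4:**
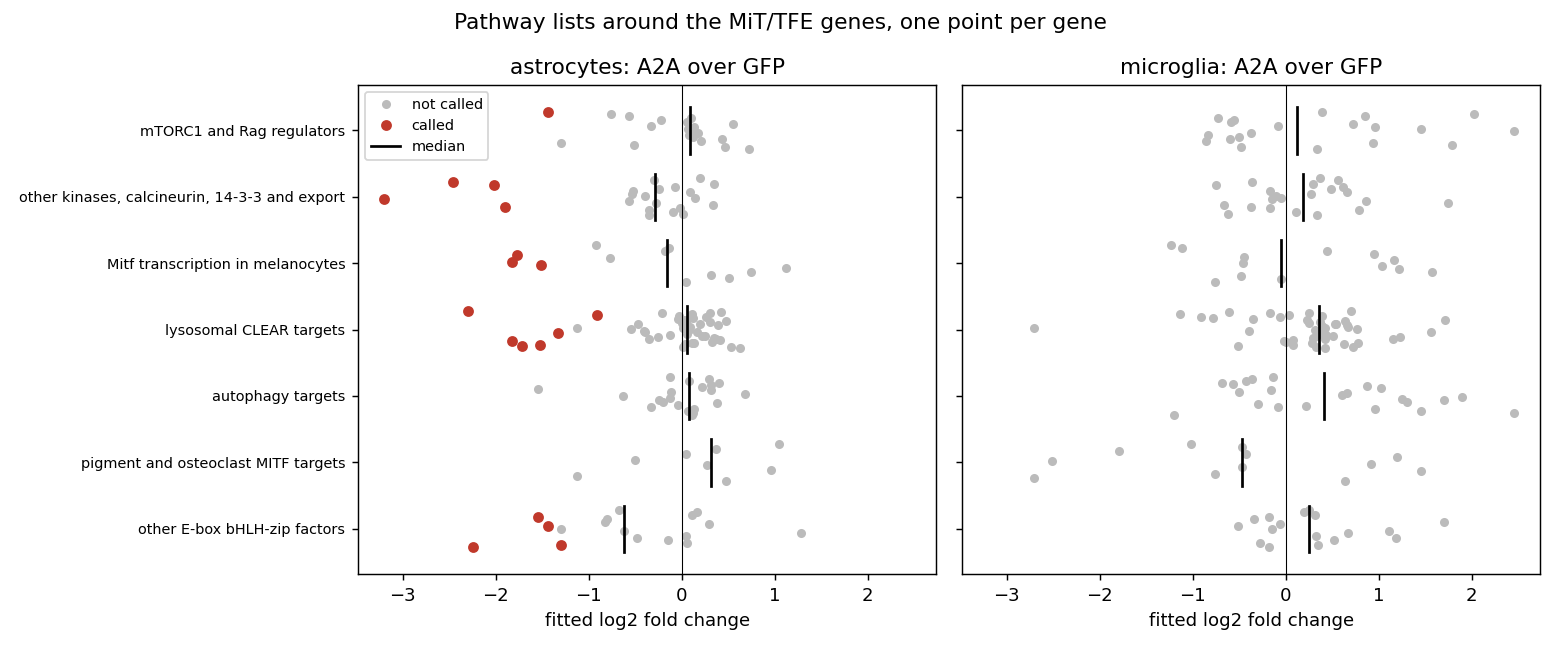
Fitted log2 fold change of AAV-A2A over AAV-GFP (horizontal axis) for each tested gene of the 7 lists, in astrocytes (left) and microglia (right), with called genes in red and the median of the plotted genes as a bar. Rab38, without a read in AAV-A2A astrocytes, is left out. The called genes of the astrocyte panel all lie below 0, and the medians of the lysosomal (0.06) and autophagy (0.08) lists lie near 0 in astrocytes.

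The targets and regulators also differed between the control fractions, where 59 of 151 tested genes were called (39.1%, beside 27.6% of all genes), 21 higher and 38 lower in astrocytes, beside 12.5% and 15.2% of all genes. Of 48 lysosomal targets, 19 were lower in astrocytes and 4 higher. Ctss, the cathepsin S of macrophages, went from 6030 ± 5231 CPM in microglia to 80.7 ± 26.3 CPM in astrocytes (log2 fold change -6.22 ± 0.831, adjusted p = 0.000388, edgeR), and Ctsd, the gene of the site shown above, from 7076 ± 5482 to 595 ± 68.8 CPM (-3.57 ± 0.567, adjusted p = 0.00108). Npc1 (2.63 ± 0.548), Sgsh (1.57 ± 0.528) and Scpep1 (1.42 ± 0.408) were higher in astrocytes, in a comparison that shares the AAV-GFP astrocyte libraries with that of the vectors. Sgsh and Scpep1 were not called without the 3 libraries rich in choroid plexus RNA (adjusted p = 0.392 and 0.239) nor without GFP-303, GFP-306, GFP-2328 or GFP-2329 alone, and Sgsh also not without GFP-307, A2A-310, A2A-313 or A2A-2344. Mcoln1 was lower in astrocytes (-0.91 ± 0.241, adjusted p = 0.0169), but not called without GFP-303 or without the 3 libraries. Of the 10 genes with the CLEAR core, 4 were lower and 1 higher in astrocytes.

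The regulators of the family were split between the fractions. Flcn, a GTPase-activating protein for RagC and RagD that directs mTORC1 onto TFEB and TFE3, was 3.15-fold lower in astrocytes (log2 fold change -1.66 ± 0.297, adjusted p = 0.00218, edgeR), while Rragb (2.63 ± 0.567) and Mlst8 (1.84 ± 0.343), a Rag GTPase and an mTORC1 subunit, were higher. Crtc3 and Crtc1 were 5.22-fold and 2.47-fold higher in astrocytes (adjusted p = 0.000599 and 0.00651), as was Ywhab (4.13-fold), and Crtc1 missed the threshold without the 3 libraries rich in choroid plexus RNA (adjusted p = 0.0504). Ednrb, the endothelin receptor upstream of Mitf in melanocytes, was 11.5-fold higher in astrocytes (adjusted p = 0.00186). Zeb2, a zinc finger factor of the melanocyte lineage, was 5.97-fold lower (adjusted p = 0.00273). Among autophagy targets, Atg16l1 (-2.32 ± 0.263), Uvrag (-2.29 ± 0.385) and Vps18 (-1.83 ± 0.398) were lower in astrocytes and Map1lc3b, which encodes LC3B, was higher (1.56 ± 0.269). Srebf1 (3.07 ± 0.368) and Srebf2 (2.68 ± 0.438) were higher in astrocytes and Mlxipl (-2.25 ± 0.539) lower. Rab27a and Mlph, which were below 4 CPM in every control astrocyte library, were lower (-5.88 ± 1.48 and -5.49 ± 1.25), Rab27a not being called without GFP-303 or GFP-307. Both passed the filter on low counts through their reads in other groups, and nothing is read from their calls in this or other fits. Of the genes named here and in the paragraph before as called between the fractions, all but Sgsh, Scpep1, Mcoln1 and Crtc1 were also called without the 3 libraries rich in choroid plexus RNA.

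The genes with profiles most like each member were found as those with the smallest root mean square difference of log2 CPM, centred on each gene's mean, over the 12 libraries and 16131 genes. For Tfeb these were Tk2, Cxxc5 and Ralb, with differences of 0.170, 0.185 and 0.188, and for Tfe3 Nrip1, Bmp2k and Acox3, with 0.197, 0.208 and 0.213. Nearest to Mitf were Hyou1, Tnfsf10 and S1pr4, but at differences of 0.804, 0.856 and 0.857, so no gene shared its profile as closely. Hyou1 was lower in AAV-A2A than in AAV-GFP astrocytes like Mitf (mean log2 CPM 2.31 and 4.27), but unlike Mitf had a higher mean in AAV-A2A than in AAV-GFP microglia (6.37 and 5.54). For Tfec the nearest genes, Kifc5b, C130051F05Rik and 1700028E10Rik, were at 1.13 to 1.25, on counts near 0.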

How the data were processed

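Gene expression was measured by RNA sequencing of sorted astrocytes and microglia from mouse hippocampus. Per the labels and the study's methods, the authors amplified cDNA with SMART-Seq v4, made libraries with Nextera XT, trimmed reads with cutadapt 1.10, aligned them to mm10 (GRCm38) with STAR 2.5.3 and counted them per Ensembl gene with HTSeq 0.6.1p1. The strand setting of the counting is not given in the sources used here. The values deposited by the authors are raw read counts per gene. Reads carry no molecular identifiers, so PCR copies are included and floors cover counting error only. The labels give 1 number per library and do not say that it names a mouse. A supplementary legend of the study gives 3 animals per group for the astrocyte data. For microglia the sources used here do not say. P-values measure the spread between these libraries, which in microglia may be technical.

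Counts were tested with the quasi-likelihood method of edgeR 4.0.16 in R 4.3.3 (TMM scaling, filterByExpr, robust dispersion), per fraction for the vectors and over all 12 libraries for the fractions. A gene was called at a Benjamini-Hochberg adjusted p under 0.05 over all tested genes and an absolute log2 fold change over 0.32, the thresholds of the study, which used DESeq2. Fold changes carry the SE of the fit and levels the SD. CPM are TMM-scaled, over 12 libraries for members, markers and fractions and over 6 for other genes in the comparison of vectors. Alternatives were DESeq2 1.42.0, limma-voom (limma 3.58.1), RLE and upper-quartile scaling, no filter, no fold threshold, other sets of libraries in the fit and each library left out in turn. The fits without the 3 libraries in which choroid plexus markers held over 1% of counts were added after seeing the data. The statistics were tested on simulated counts. No 2 libraries of the same group agreed within sampling noise.

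Members and lists were chosen with earlier results of these data known. Named were the 4 members and, from each list and comparison, at most the 3 called genes with the largest rise and fall among those with a mean of at least 5 CPM and no overlap. For each member the 3 closest profiles were named, among genes with a mean of at least 1 CPM in a group. Other genes are named to complete a count of calls or as said in the text. Positions are from GENCODE and promoter windows from RefSeq. The values of some genes that the naming rule picks are not reported here.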

Additional observations from a re-analysis of the deposited data

Results flagged for a closer look

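The vector effect differed between the fractions for 2 pathway genes by the test of the difference itself (edgeR over 12 libraries, where 0.39% of all genes were called). Atp6v0a1 had a difference, astrocytes less microglia, of -3.04 ± 0.539 on the log2 scale (adjusted p = 0.0449), and was lower with AAV-A2A in 3 of 3 astrocyte libraries. Sik2 had a difference of -2.59 ± 0.373 (adjusted p = 0.0449). Both were called in 6 of 18 alternative fits, with adjusted p from 7.4e-05 to 0.272 for Atp6v0a1 and from 3.13e-08 to 0.241 for Sik2, the highest being those without the 3 libraries rich in choroid plexus RNA.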

How the results depend on the processing

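No paired analysis was possible because the numbers in the labels tie no library of one group to a library of another; whether the fractions share mice is not given. The genes called in astrocytes (553) were 1263 with DESeq2, 146 with all 12 libraries in the fit and 272 to 448 with 1 library left out, lowest without GFP-306, with 341 without GFP-307, 295 without A2A-310 and 330 without A2A-313. The list genes called there (19) were 8 in the fit of 12 libraries and 11 to 15 with 1 left out, lowest without GFP-306. In microglia, genes called (0) were 455 with DESeq2 and 3 without the 3 libraries rich in choroid plexus RNA, list calls (0) were 4 with DESeq2, and with any 1 library left out both were 0. Between control fractions the members called (1) were 3 with DESeq2, 2 without the libraries rich in choroid plexus RNA, and 1 to 2 with 1 left out, 2 without GFP-2328. The added members were Tfeb in each case and, with DESeq2, Tfec. Nothing is read from the call of Tfec, which had no read in AAV-GFP astrocytes. Genes with a difference between vector effects (74) were 1726 with DESeq2, 167 with no filter, 0 with RLE scaling, 0 with upper-quartile scaling, 0 without the libraries rich in choroid plexus RNA, and 0 to 1253 with 1 left out, highest without GFP-2331 and 804 without A2A-2343. The order of levels per length was kept in 2 of 4 groups with median transcript lengths. The causes were not tested. No log2 fold change of a tested member changed sign. That of Tfeb in astrocytes, which had no test, ran from -0.34 to 0.16 over 13 alternatives. With 3 libraries per group and microglia libraries of unequal purity, a difference of the size seen for Mitf in microglia did not pass the test.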
